A study of Mus musculus with 16 samples.

Results

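The cold response held in common by brown adipose tissue (BAT) and by the arrays labelled white adipose tissue (WAT) was examined in 12 of the 16 arrays of the series. They comprise 3 BAT and 3 labelled WAT arrays of mice kept at room temperature (22 °C for 72 h), and 3 of each label from mice held at 22 °C for 48 h and then at 8 °C for 24 h. All were individually housed C57BL/6 mice, labelled female, on standard chow, with no transgene or drug, and each array held the RNA of 1 animal. The study took every tissue from each animal. Each temperature had fewer mice than BAT and labelled WAT arrays together, so some of these arrays share a mouse. The labels do not tie replicate numbers to animals, and the main fit treats the 12 arrays as independent. Probes were tested when they were detected (a detection score of at least 0.95, on the deposited scale from 0 to 1) on at least 2 arrays of each label, which left 12591 of 46643 probes, for 7353 named genes. A gene was a member when its probe passed the test for temperature over both labels, with the label as a block, and moved the same way in both, which 13 named genes did.

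A mouse moved to the cold raises its sympathetic output, and noradrenaline acting on beta-adrenergic receptors raises cyclic AMP in adipocytes, where it drives lipolysis and, in brown fat, heat production through uncoupling protein. Dual specificity phosphatases such as Dusp1 switch off MAP kinases, and the protein encoded by G0s2 inhibits adipose triglyceride lipase, the first enzyme of lipolysis.

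Marker genes followed the BAT label but not the WAT label. Adiponectin (Adipoq) gave signals of 3245 to 5064 in BAT and 12.9 to 65.7 on arrays labelled WAT, whereas hemopexin (Hpx), a liver secretory protein, gave 31.8 to 371 in BAT and 11069 to 17096 on arrays labelled WAT. Over 11 adipocyte markers the summed signal was 31425 to 35999 in BAT and 949 to 1482 on arrays labelled WAT. Over 13 hepatocyte markers it was 5392 to 13266 in BAT at room temperature, 1266 to 1679 in BAT in the cold and 126284 to 144639 on arrays labelled WAT, although the albumin probe was detected on 1 of the 12 arrays only. WAT is therefore used as a label and not as a tissue. The sum of 8 exocrine pancreas markers was 55688 on cold replicate 3 of labelled WAT, far from the 6217 and 6009 of cold replicates 1 and 2, and skeletal muscle markers summed to 26495 to 57436 in BAT. Against the label female, Xist was detected on 0 of the 12 arrays and the Y-linked Eif2s3y on 12 of 12, while Uty and Kdm5d were detected on 0 of 12. Between 11915 and 14894 probes were detected per array.

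The fit called 20 probes for temperature over both labels, 0.159% of those tested. Of these, 12 were higher in the cold (0.0953%) and 8 were lower (0.0635%). Among the 13 with a gene name, Mfsd2a, Dusp1, Gadd45g, G0s2, Noct, H3c13, Cyp51, Tubb6 and Hspa8 rose, and Hsd3b5, Aox3, Wdr6 and Cyp4f14 fell. All 20 moved the same way in both labels, and for each of them the cold and room temperature arrays did not overlap in either label, against 1.86% of all probes tested, although the calls rest on these same values. In BAT, Hsd3b5 and Cyp4f14 were detected only at room temperature and Mfsd2a only in the cold. Aox3 in BAT and Gadd45g on arrays labelled WAT had 1 detected array at the temperature where they were lower. These 5 genes met the detection filter in that label through the temperature where they were high, so the filter favoured their direction there. At an unadjusted p under 0.05 the same fit had 773 probes higher (6.14%) and 820 lower (6.51%). Over all probes 52.3% had the same sign in both labels.

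**Figure D1:**
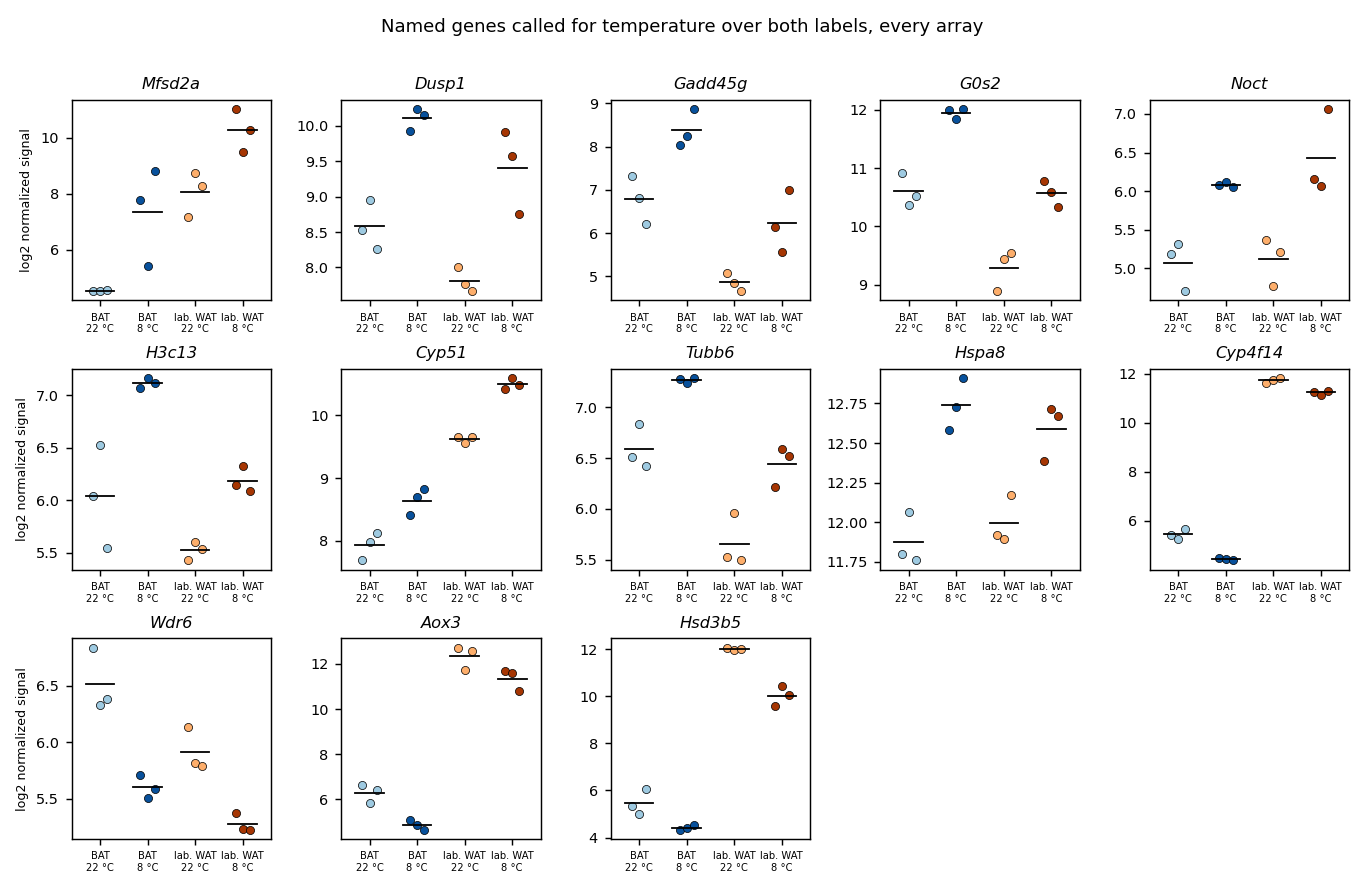
Log2 normalized signal (vertical axis, own scale in each panel) of the 13 named genes called for temperature over both labels, on each of the 12 arrays, grouped by label and temperature; points are arrays and bars are means of 3 arrays. In each panel the 3 cold arrays lie wholly above or wholly below the 3 room temperature arrays of the same label.

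Promoters are printed for 4 of the 5 named genes that rose at least 2-fold, those in which 1 of the capitalised motifs was found. Each is 300 bases of RefSeq sequence (assembly GRCm38.p6), 250 before and 50 after the annotated start, read 5′ to 3′ on the gene's own strand, with the cyclic AMP response element TGACGTCA, its core TGACG and the TATA box TATAAA in capitals on either strand. They lie at chr17:26508423-26508722 (minus strand, Dusp1), chr1:193273139-193273438 (minus strand, G0s2), chr3:51224197-51224496 (plus strand, Noct) and chr13:51846425-51846724 (plus strand, Gadd45g).
Dusp1: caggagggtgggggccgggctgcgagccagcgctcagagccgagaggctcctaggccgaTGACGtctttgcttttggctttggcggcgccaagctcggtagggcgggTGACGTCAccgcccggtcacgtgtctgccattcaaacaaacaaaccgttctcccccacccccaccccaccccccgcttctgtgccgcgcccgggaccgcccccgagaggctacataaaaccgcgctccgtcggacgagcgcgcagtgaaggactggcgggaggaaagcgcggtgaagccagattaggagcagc
G0s2: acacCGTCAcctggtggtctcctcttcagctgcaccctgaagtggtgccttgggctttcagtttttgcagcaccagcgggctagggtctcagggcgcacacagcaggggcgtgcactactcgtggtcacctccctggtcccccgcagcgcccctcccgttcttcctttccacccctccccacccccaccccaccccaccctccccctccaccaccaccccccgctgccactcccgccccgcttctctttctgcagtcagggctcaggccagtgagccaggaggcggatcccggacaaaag
Noct: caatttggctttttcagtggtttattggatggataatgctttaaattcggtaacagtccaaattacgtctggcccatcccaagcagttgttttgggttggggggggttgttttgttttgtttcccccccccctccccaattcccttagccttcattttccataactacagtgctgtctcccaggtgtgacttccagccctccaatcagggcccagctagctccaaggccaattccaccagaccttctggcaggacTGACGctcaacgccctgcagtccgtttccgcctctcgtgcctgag
Gadd45g: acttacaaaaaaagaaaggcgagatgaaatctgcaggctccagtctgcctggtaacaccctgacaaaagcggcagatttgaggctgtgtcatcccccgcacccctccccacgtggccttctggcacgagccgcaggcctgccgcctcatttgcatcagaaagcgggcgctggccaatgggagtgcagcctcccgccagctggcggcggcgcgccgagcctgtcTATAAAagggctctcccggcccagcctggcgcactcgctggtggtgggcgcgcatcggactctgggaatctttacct
The full element stood in the Dusp1 promoter, 143 bases before the start, and so in 1 of the 11 called genes with a promoter in the table, against 1.79% of all 32851 promoters. The core TGACG, which the full element holds on both strands, stood in 6 of the 11 (Aox3, Cyp51, Dusp1, G0s2, Noct and Wdr6), against 20.8% of all promoters, and so in genes that rose and in genes that fell. Searched likewise on both strands, TATAAA was found in 1 of 11 (Gadd45g, 27 bases before the start), against 13.6%, and the E-box CACGTG in 2 of 11 (Dusp1 and Gadd45g), against 7.15%. The CCAAT box CCAAT stood in 8 of 11, against 37.4%, the GC box GGGCGG in 4 of 11, against 35.7%, and the palindromic glucocorticoid response element in 0 of 11, against 0.00913%. For a gene with several promoters in the table, its leading entry was counted, and a match describes the letters in this window only.

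Dusp1, a MAP kinase phosphatase that is quickly induced by stress, gave signals in BAT of 355, 477 and 292 at room temperature against 949, 1182 and 1123 in the cold. On arrays labelled WAT it gave 242, 201 and 188 at room temperature against 944, 751 and 416 in the cold. The lowest cold array of each label exceeded its highest room temperature array, and the lowest cold array of labelled WAT was replicate 3, the one with pancreas markers. Over both labels Dusp1 was 2.95-fold higher (95% interval 2.26 to 3.86, limma adjusted p = 0.00219), with log2 changes of 1.53 in BAT and 1.60 on arrays labelled WAT. The difference between these changes was -0.07 on the log2 scale with a standard error of 0.37.

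G0s2 gave signals in BAT of 1917, 1305 and 1433 at room temperature against 4036, 3710 and 4098 in the cold. Those of labelled WAT were 459, 680 and 724 at room temperature against 1753, 1519 and 1266 in the cold. The groups were apart in both labels, and the level was higher in BAT than on arrays labelled WAT at each temperature. G0s2 was 2.48-fold higher in the cold (95% interval 2.00 to 3.08, limma adjusted p = 0.00219), with log2 changes of 1.34 in BAT and 1.28 on arrays labelled WAT that differed by 0.07 with a standard error of 0.30. Of the 13 tested genes for lipolysis and lipid droplets G0s2 was the 1 called. At an unadjusted p under 0.05 it was the 1 higher gene and Lipe, which encodes hormone-sensitive lipase, the 1 lower (log2 change -0.54, adjusted p = 0.261). These counts lie near the shares of all genes, 6.49% higher and 7.74% lower. In the labels 9 of the 13 had opposite signs, where 52.3% of all probes had the same sign.

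Mfsd2a, which encodes a lysophospholipid transporter, was not detected on any BAT array at room temperature, with signals of 4.0, 4.2 and 4.8, and gave 206, 27.5 and 436 in the cold. On arrays labelled WAT it gave 129, 410 and 295 at room temperature against 2070, 695 and 1230 in the cold. The cold arrays differed widely among themselves, and cold replicate 2 was the lowest of its group in each label. Mfsd2a was called over both labels (limma adjusted p = 0.0394). In BAT it met the detection filter through cold arrays alone, which favours a rise there. On arrays labelled WAT it was 4.59-fold higher, and within BAT at least 5.88-fold with the room temperature arrays set to each array's lowest detected signal. Since those BAT arrays give only a bound, the log2 change over both labels moved with the background step, from 1.97 with an offset of 50 (adjusted p = 0.0632) through 2.50 to 3.52 without further correction (adjusted p = 0.106), and neither of these alternatives kept the call.

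Gadd45g, a stress sensor that binds an upstream kinase of the p38 and JNK pathways, gave 146, 96.9 and 58.4 in BAT at room temperature against 247, 289 and 455 in the cold. Labelled WAT arrays gave 18.3, 12.6 and 7.7 at room temperature, where 1 of 3 arrays detected it, and 55.6, 31.8 and 112 in the cold. The 112 was cold replicate 3, the array with pancreas markers. Without it the labelled WAT log2 change of 1.37 became 0.99. No cold array fell within the room temperature range of its label, and Gadd45g was 2.80-fold higher (95% interval 1.96 to 4.00, limma adjusted p = 0.0296). Its log2 change of 1.49 became 1.08 with an offset of 50 (adjusted p = 0.0464). Without further background correction it was 2.02, where the call was lost (adjusted p = 0.0754). Gadd45g was the 1 gene called of 9 tested cell cycle genes and the 1 with an unadjusted p under 0.05, beside 6.49% higher and 7.74% lower of all genes. In the labels 4 of the 9 had opposite signs, and the median log2 change was 0.06, so the list shows nothing beyond Gadd45g.

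Noct (nocturnin), a rhythmic phosphatase of NADP(H), gave 20.9, 24.2 and 8.9 in BAT at room temperature against 52.4, 53.9 and 51 in the cold. Labelled WAT arrays gave 26.0, 10.5 and 21.5 at room temperature against 56.1, 52.0 and 119 in the cold. The 119 was cold replicate 3, the array with pancreas markers. Without it the labelled WAT log2 change of 1.32 became 1.00. All 6 cold arrays lay above all 6 room temperature arrays, and Noct was 2.24-fold higher (95% interval 1.71 to 2.94, limma adjusted p = 0.0250). Its log2 change of 1.17 became 0.70 with an offset of 50 and 1.81 without further background correction, where the call was lost (adjusted p = 0.0754). A second and brighter Noct probe (mean log2 signal 7.47 against 5.67 for the called one) had a log2 change of 1.13 and was not called (adjusted p = 0.172).

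Hspa8, the constitutive cytosolic heat shock chaperone, gave 3521, 4281 and 3364 in BAT at room temperature against 5912, 6777 and 7540 in the cold with the called probe. In labelled WAT the signals were 3957, 3704 and 4542 at room temperature against 5443, 6715 and 6568 in the cold. Each cold array exceeded each room temperature array of both labels, and Hspa8 was 1.66-fold higher (95% interval 1.38 to 1.99, limma adjusted p = 0.0305). The other Hspa8 probes had log2 changes of 0.90 (adjusted p = 0.0927) and, for the brightest, 0.51 (adjusted p = 0.122), so the call did not extend to each probe of the gene.

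Cyp51, the lanosterol demethylase of cholesterol synthesis, gave 191, 238 and 266 in BAT at room temperature against 324, 396 and 440 in the cold. In labelled WAT it gave 785, 739 and 792 at room temperature against 1367, 1517 and 1396 in the cold. The arrays of each labelled WAT group lay close together, and Cyp51 was 1.73-fold higher (95% interval 1.44 to 2.06, limma adjusted p = 0.0250). A second Cyp51 probe had a log2 change of 0.66 (adjusted p = 0.268). Tubb6, a beta tubulin, gave 75.5, 98.5 and 70.4 in BAT at room temperature against 139, 136 and 141 in the cold, and on arrays labelled WAT 30.6, 46.8 and 29.7 against 58.9, 80.9 and 76.1. Its cold arrays were nearly equal in BAT, and Tubb6 was 1.66-fold higher (95% interval 1.37 to 2.01, limma adjusted p = 0.0313).

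H3c13, a histone H3 gene of the replication-dependent clusters, gave 50.5, 77.1 and 31.4 in BAT at room temperature against 119, 128 and 123 in the cold, and on arrays labelled WAT 27.6, 33.0 and 31.1 against 55.0, 64.6 and 52.5. The groups did not overlap in either label, and H3c13 was 1.82-fold higher (95% interval 1.45 to 2.29, limma adjusted p = 0.0353). These genes are near-identical copies, so a probe may read more than 1 of them. The other tested probes of the family were looked up after the values were seen. All 5 probes, of 4 genes and with that of H3c13 among them, were higher in both labels, beside 26.1% of all genes. Their median log2 change was 0.55, and 1 of the 5, that of H3c13, was called, beside 0.159% of all probes. As they may read each other's genes, the 5 do not count as separate members. H3c4, H3c10 and H3c7 had log2 changes of 0.61, 0.55 and 0.55 and adjusted p-values of 0.0813, 0.104 and 0.104, and a second H3c10 probe had 0.48 (adjusted p = 0.132).

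The genes that fell include 3 enzymes known from liver. Hsd3b5, a hydroxysteroid dehydrogenase of mouse liver, gave 4299, 4031 and 4071 on arrays labelled WAT at room temperature against 749, 1372 and 1058 in the cold. In BAT it gave 25.6, 16.5 and 50.8 at room temperature and was not detected on any cold array, with signals of -5.0, -1.5 and 3.7. The labels thus stood at very different levels, and both were lower in the cold (limma adjusted p = 0.0102 over both). Hsd3b5 met the detection filter in BAT through room temperature arrays alone, which favours a fall there, so its BAT change is no separate support. Within BAT Hsd3b5 was at least 1.51-fold lower and on arrays labelled WAT 3.95-fold lower. Its log2 change over both labels moved with the background step, from -1.23 with an offset of 50, where the call was lost (adjusted p = 0.0566), through -1.52 to -2.24 in the value table (adjusted p = 0.0135).

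Aox3, an aldehyde oxidase, gave 84.4, 42.0 and 68.7 in BAT at room temperature against 17.9, 13.4 and 7.5 in the cold, where 1 of 3 arrays detected it. On arrays labelled WAT it gave 6718, 3369 and 5899 at room temperature against 3245, 3046 and 1770 in the cold, so the lowest room temperature array and the highest cold array were close. Over both labels Aox3 was 2.31-fold lower (95% interval 1.69 to 3.15, limma adjusted p = 0.0305). The fold depends on the background step. The log2 change of Aox3 was -0.91 with an offset of 50 (adjusted p = 0.0669) and -1.68 without further background correction (adjusted p = 0.1255), and neither kept the call. Cyp4f14, a cytochrome P450 that hydroxylates fatty acids, gave 26.8, 23.1 and 34.6 in BAT at room temperature and was not detected on any BAT array in the cold, at least 1.48-fold lower. On arrays labelled WAT its signals were 3164, 3415 and 3630 at room temperature against 2448, 2227 and 2488 in the cold, 1.42-fold lower, and the limma adjusted p over both labels was 0.0296. The log2 change of Cyp4f14 over both labels was -0.49 with an offset of 50 and -1.49 without further background correction, where the call was lost (adjusted p = 0.138). Both Aox3 and Cyp4f14 met the detection filter in BAT through room temperature arrays, which favours a fall there.

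In BAT the lower values of these 3 enzymes went with those of the hepatocyte markers. Of 10 hepatocyte markers tested, 8 were lower and 0 higher over both labels without adjustment (p under 0.05), beside 7.74% and 6.49% of all genes. Their median log2 changes were -2.59 in BAT and -0.07 on arrays labelled WAT. On arrays labelled WAT the summed hepatocyte markers were 139947 to 144639 at room temperature and 126284 to 143829 in the cold. The part of hepatocyte RNA in the change of Hsd3b5, Aox3 and Cyp4f14 was not tested, and in bulk RNA fewer cells of a type and less RNA per cell cannot be told apart.

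Wdr6, which encodes a WD repeat protein, gave 99.0, 65.1 and 68.3 in BAT at room temperature against 36.8, 30.1 and 32.5 in the cold, and on arrays labelled WAT 55.1, 41.1 and 40.0 against 26.1, 22.0 and 21.9. The cold arrays were the lower ones in both labels, and Wdr6 was 1.72-fold lower (95% interval 1.42 to 2.08, limma adjusted p = 0.0296). The 7 called probes without a gene name comprised 3 that rose by 1.77-fold to 2.01-fold and 4 that fell by 1.93-fold to 2.53-fold. The lowest adjusted p among them was 0.00512 by limma, for a probe (2361) that gave 87.1, 83.2 and 97.2 in BAT at room temperature against 34.5, 33.4 and 43.3 in the cold, and on arrays labelled WAT 109, 91.5 and 131 against 59.8, 53.6 and 42.0.

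Among the named genes just outside the threshold, F11, coagulation factor XI, had a log2 change of -0.77 (adjusted p = 0.0555). It was not detected on any cold BAT array, so within BAT it was at least 1.07-fold lower. Arf3 (-0.62), C8b (-0.73), the dimmer of the Fdps probes (1.40) and Cgrrf1 (0.61) followed at an adjusted p of 0.0700. That Fdps probe was not detected on any room temperature BAT array, so within BAT it was at least 1.38-fold higher. Just inside it were Mfsd2a (adjusted p = 0.0394) and an unnamed probe (39679, adjusted p = 0.0470).

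The block fit asks whether the mean over both labels changed. Whether each label changed on its own was asked with the larger of the within-label p-values, and after adjustment 0 probes passed (0%, smallest adjusted p = 0.287 by limma). Without adjustment 74 probes were higher in each label (0.588%) and 69 lower (0.548%), and 53 had opposite directions. With the methods' t-test, at their unadjusted threshold and at least 2-fold in both labels, 5 probes were higher and 2 lower, and 0 passed after Benjamini-Hochberg adjustment. These 7 were Dusp1, G0s2, Mfsd2a, Gadd45g, Noct, Hsd3b5 and 1 unnamed probe, all among the 20. The place of Hsd3b5 rests on cold BAT arrays that did not detect it, and its bound in BAT was at least 1.51-fold. Within BAT alone limma called 233 probes (1.85%), of which 14 were among the 20, and within arrays labelled WAT alone 20 probes (0.159%), of which 4 were. Dusp1 and G0s2 were called within each label alone, with adjusted p-values of 0.00673 and 0.00319 in BAT and 0.0240 for both on arrays labelled WAT.

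Whether the cold change differed between the labels was tested as an interaction. The change was higher in BAT for 12 probes (0.0953%) and lower in BAT for 61 (0.484%). None of the 20 was among these 73 in limma, and 4 of the 20 had an unadjusted interaction p under 0.05. Among these, the change of Hsd3b5 differed by 0.93 on the log2 scale (lower on arrays labelled WAT, adjusted p = 0.386) and that of Cyp4f14 by -0.50 (lower in BAT, adjusted p = 0.470). Neither gene was detected on any cold BAT array, so each BAT change is only a bound. The difference for Hsd3b5 thus has no settled size or direction, and that for Cyp4f14 no settled size. A miss of the threshold does not show equal responses.

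**Figure D2:**
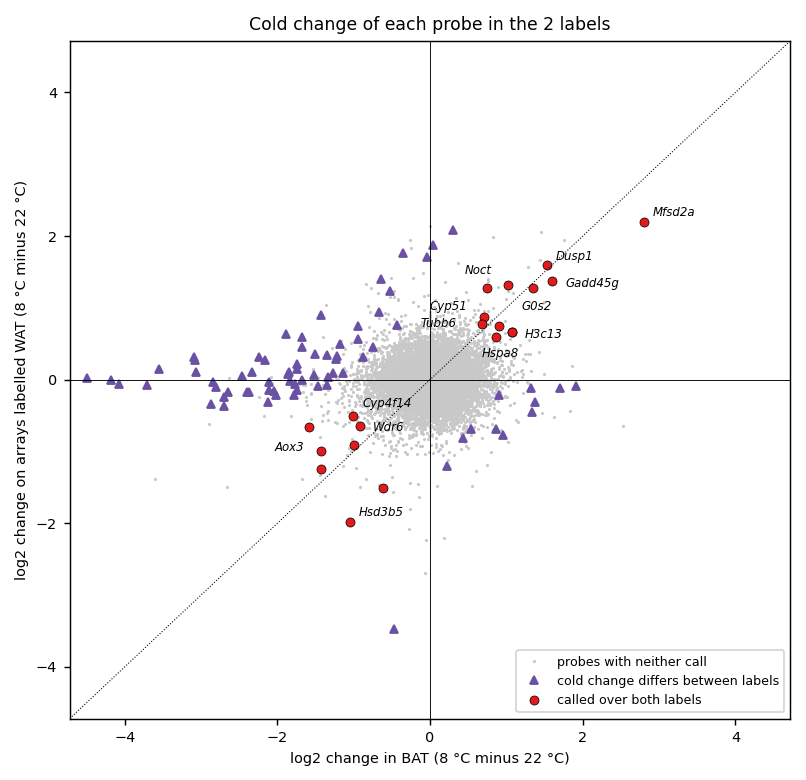
Log2 change from 22 °C to 8 °C of each of 12591 probes in BAT (horizontal axis) and on arrays labelled WAT (vertical axis). The 20 probes called over both labels lie in the upper right and lower left corners around the origin, whereas many of the 73 probes whose change differed between the labels lie to the left, near a labelled WAT change of 0.

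Of 13 tested cholesterol synthesis genes 1 was called (Cyp51). Without adjustment (p under 0.05) 7 were higher and 0 lower, beside 6.49% higher and 7.74% lower of all 7353 genes, and 10 of the 13 were higher in both labels, beside 26.1% of all genes. The median log2 change of the list was 0.43, with 0.35 in BAT and 0.59 on arrays labelled WAT, and that of all genes -0.01. Hsd17b7, a ketoreductase of sterol synthesis, gave 161, 171 and 122 in BAT at room temperature against 248, 249 and 195 in the cold, and on arrays labelled WAT 1038, 1069 and 707 against 1351, 1893 and 1928. Msmo1, the sterol methyl oxidase, gave 269, 323 and 301 against 407, 375 and 370 in BAT, and 2184, 2217 and 1791 against 4215, 4166 and 3559 on arrays labelled WAT. The cold arrays of both genes lay above the room temperature arrays in both labels, but neither passed (log2 changes 0.72 and 0.65, adjusted p = 0.0884 and 0.0847). Mvd, which makes isopentenyl diphosphate, had a log2 change of 0.85 (adjusted p = 0.128) and Srebf2, a transcription factor of the pathway, 0.62 (adjusted p = 0.216). Insig1, which holds that factor back, was the 1 member lower in both labels (log2 change -0.24, adjusted p = 0.726). The Fdps probes differed, with 0.26 (adjusted p = 0.60) for the brighter and 1.40 for the dimmer, whose BAT change is only a bound.

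Of 10 tested cold-inducible and heat shock genes, each by its brightest probe, 0 were called by limma. Without adjustment (p under 0.05) 6 were higher and 1 was lower, beside 6.49% and 7.74% of all genes. In both labels 8 were higher, beside 26.1% of all genes, and the median log2 change was 0.36. Hsph1, a nucleotide exchange factor for heat shock chaperones, gave 224, 460 and 339 in BAT at room temperature against 741, 755 and 1165 in the cold. In labelled WAT it gave 304, 296 and 420 against 373, 561 and 808, where the groups overlapped, and its log2 change was 1.03 (adjusted p = 0.0884). Hsp90aa1, an inducible cytosolic chaperone, had a log2 change of 0.85 (adjusted p = 0.137). The 1 lower member was Cirbp, which encodes the cold-inducible RNA-binding protein. Cirbp gave 56.4, 32.9 and 23.8 in BAT at room temperature against 0.70, 2.6 and 8.2 in the cold, and on arrays labelled WAT 53.1, 17.2 and 33.6 against 4.6, 34.6 and 6.8. Its groups were apart in BAT and overlapped on arrays labelled WAT, and its log2 change was -0.89 (adjusted p = 0.121).

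Of 12 tested clock genes 0 were called by limma. Without adjustment (p under 0.05) 0 were higher and 3 lower, beside 6.49% and 7.74% of all genes. In both labels 5 were higher and 7 lower, beside 26.1% and 27.7% of all genes, and the median log2 change was -0.08. Nr1d1, the clock repressor known as REV-ERB alpha, gave 116, 120 and 141 in BAT at room temperature against 84.5, 73.1 and 101 in the cold, and on arrays labelled WAT 81.9, 140 and 106 against 18.4, 20.2 and 43.1. Its groups did not overlap in either label, with log2 changes of -0.48 in BAT and -1.56 on arrays labelled WAT (over both -1.02, adjusted p = 0.0813). Dbp, an output gene of the clock, had a log2 change of -0.71 (adjusted p = 0.104) and Cry2, a clock repressor, -0.36 (adjusted p = 0.362).

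**Figure D3:**
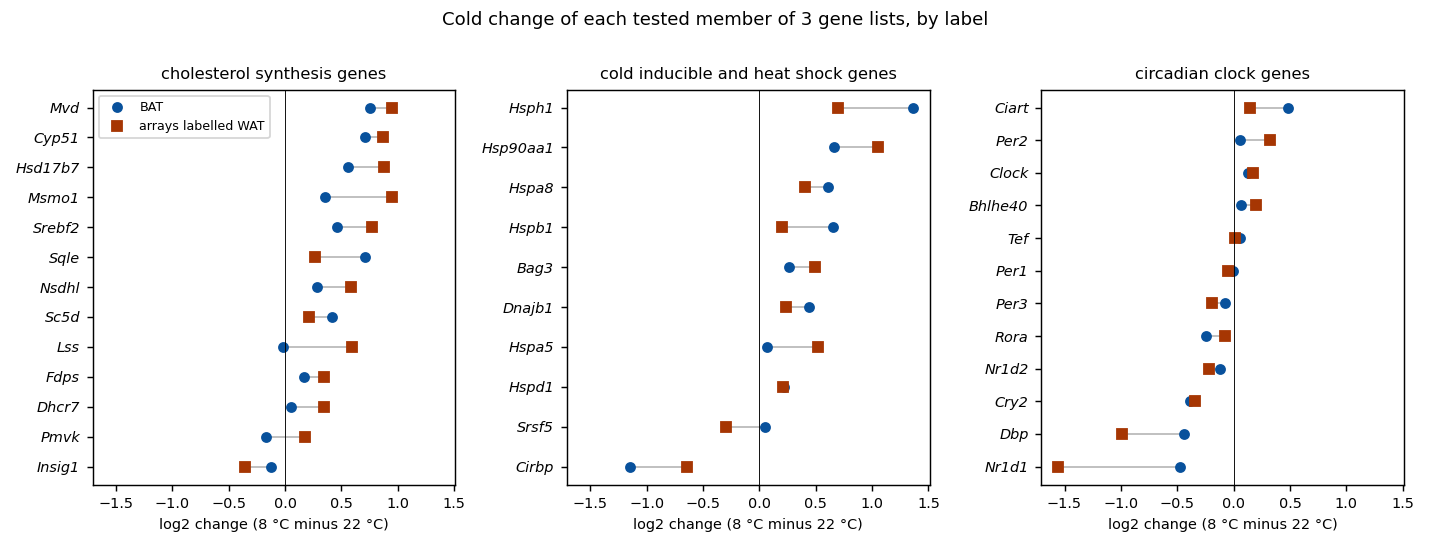
Log2 change from 22 °C to 8 °C (horizontal axis) of each tested member of the cholesterol synthesis, cold-inducible and heat shock, and circadian clock lists, with separate symbols for BAT and labelled WAT. Of 13 cholesterol genes 10 lie right of 0 in both labels, Cirbp lies left of 0 in both, and Nr1d1 lies farther left on arrays labelled WAT than in BAT.

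Of 4 tested dual specificity phosphatase genes Dusp1 was called, beside 0.159% of all probes, whereas Dusp6, Dusp10 and Dusp16 had log2 changes of 0.37, -0.08 and -0.09 (adjusted p = 0.497, 0.840 and 0.878). Of 14 tested glucocorticoid responsive genes Dusp1 was the 1 called and the 1 with an unadjusted p under 0.05. This count lies near the 6.49% of all genes that were higher at that p, so the list shows nothing beyond Dusp1. In the labels 8 of the 14 had opposite signs, where 52.3% of all probes had the same sign. Among 11 immediate early genes 0 were called by limma, and 4 were higher and 2 lower unadjusted, beside 6.49% and 7.74% of all genes. The lower ones were Egr1 (log2 change -1.18, adjusted p = 0.128) and Junb (-0.49, adjusted p = 0.381), which both encode early transcription factors. Of 14 stress response and chaperone genes 0 were called, and 2 were higher and 3 lower unadjusted, beside the same shares of all genes. Atf4, the transcription factor of the integrated stress response, had log2 changes of 0.77 in BAT and 0.63 on arrays labelled WAT (adjusted p = 0.0914 over both), while Trib3, a target of it, had -0.14 and -1.63 (adjusted p = 0.215).

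The interferon and antigen presentation list had 0 called of 14 by limma, with 0 higher and 4 lower unadjusted, beside 6.49% and 7.74% of all genes. Its median log2 changes were -0.76 in BAT and -0.06 on arrays labelled WAT. B2m, the light chain of class I molecules, had a log2 change of -0.45 (adjusted p = 0.150). Of 6 tested macrophage markers 5 were lower in both labels, beside 27.7% of all genes. The sum over 10 such markers was 721 to 1104 at room temperature and 511 to 700 in the cold in BAT, and 1069 to 1874 and 966 to 1193 on arrays labelled WAT. Their part in the interferon list was not tested. Of 30 oxidative phosphorylation subunits 0 were called and 3 were higher and 0 lower unadjusted, and of 20 proteasome subunits 0, 1 and 0. The higher counts of these lists lie near the 6.49% of all genes. Of 10 thermogenic genes 0 were called, and 3 were higher and 1 lower unadjusted, beside 6.49% and 7.74% of all genes. Elovl3, a fatty acid elongase of brown fat, had log2 changes of 1.91 in BAT and -0.08 on arrays labelled WAT, which differed (interaction adjusted p = 0.0116), and Ppargc1a, a coactivator of mitochondrial genes, had 0.75 and 0.23 (adjusted p = 0.236 over both).

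The 4 arrays labelled liver, 2 per temperature, took no part in the choice of members but share animals with some of the other arrays. Their summed hepatocyte markers were 98040 to 134461 at room temperature and 9180 to 18280 in the cold, and their adipocyte markers 40737 to 62640, so liver too is used as a label. Of the 12 probes that rose, 10 were also higher on the cold arrays labelled liver, with a median log2 change of 0.65, and of the 8 that fell 6 were lower, with a median of -1.43. Over all probes tested 56.6% were higher there, the median log2 change was 0.06, and 1542 (12.2%) had an unadjusted p under 0.05. Of the 20 probes 4 were higher and 5 lower at that p, all in the direction of the other labels. Dusp1 gave 399 and 475 at room temperature against 976 and 1112 in the cold, and G0s2 gave 2003 and 1832 against 3038 and 3085. The cold arrays were the higher ones for both genes (log2 changes 1.24 and 0.70, limma adjusted p = 0.110 and 0.290). Hsd3b5, Cyp4f14 and Aox3 had log2 changes of -6.15, -5.68 and -5.57 (limma adjusted p = 0.0180, 0.0180 and 0.0303), alongside the hepatocyte markers. Mfsd2a (-1.14) and Cyp51 (-0.48), which rose over the other labels, and Wdr6 (0.30) and the unnamed probe 2361 (0.26), which fell there, had the opposite sign.

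The count of calls depended on single arrays. Leaving out cold replicate 3 of labelled WAT gave 37 probes higher and 39 lower, all 20 among them, with Nr1d1 also called (adjusted p = 0.0446). Leaving out cold replicate 1 of labelled WAT gave 31 calls, and leaving out any of the other 10 arrays gave 3 to 17. Dusp1 and G0s2 were called in 12 of 12 such fits. Hsd3b5 was called in 11, the exception being without room temperature replicate 3 of labelled WAT (adjusted p = 0.0502). Noct was called in 8 of 12, Cyp51 in 7, Gadd45g in 5, Aox3, Tubb6 and Wdr6 in 4, H3c13 and Hspa8 in 3, and Mfsd2a and Cyp4f14 in 2. Of the 13 named genes, 13 remained called without cold replicate 3 of labelled WAT, 12 without its cold replicate 1 (Mfsd2a lost), 5 without its cold replicate 2, and 3, 8 and 2 without its room temperature replicates 1, 2 and 3. In BAT 5, 11 and 4 remained without room temperature replicates 1, 2 and 3, and 4, 6 and 4 without cold replicates 1, 2 and 3. The direction of each of the 13 was the same in all 12 fits, and the highest adjusted p was 0.129, for Mfsd2a.

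**Figure D4:**
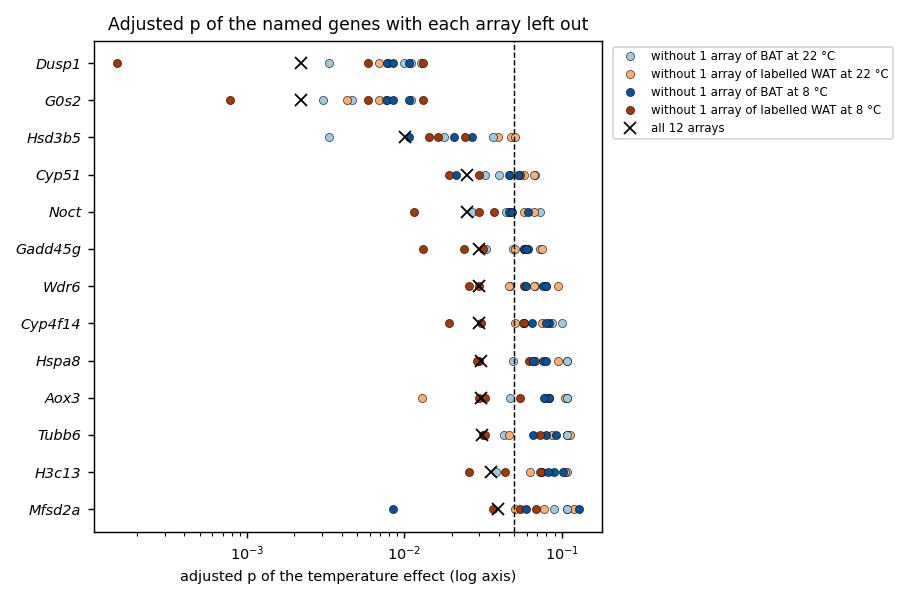
Adjusted p of the temperature effect over both labels (horizontal log axis) for the 13 named genes, with all 12 arrays and with each array left out in turn. Dusp1 and G0s2 stay below 0.05 in all 12 fits, and each of the other genes crosses it without at least 1 array.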

How the data were processed

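RNA of BAT, WAT and liver was hybridised to Illumina MouseWG-6 V1 arrays, 1 animal an array. The authors deposited probe signals as intensity values on a linear scale, background-subtracted and of nearly equal distribution between arrays by a step not given in the sources used here, and a detection score from 0 to 1 for each. A second deposited table, on the log2 scale, equals log2 of the signals, set to at least 5, minus each probe's median, to within 2.54e-06.

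With limma 3.58.1 (R 4.3.3), neqc was applied to the signals (normexp, offset 16, negative controls inferred from the scores), which quantile-normalized the 16 arrays. A linear model with tissue label and temperature was fitted over 12 arrays with moderated statistics and Benjamini-Hochberg adjustment over 12591 probes, called under 0.05. A second fit with 4 group means gave the change in each label, the larger of both p-values, and the interaction. Arrays labelled liver were fitted apart. The fit was run on simulated data with independent arrays, which cannot check it for arrays that share a mouse. A fold is given as at least N-fold where no array of a group detected the probe, with each array's lowest detected signal in its place. Printed signals are those deposited, and folds come from the normalized values. The p-values measure the spread between these arrays, whose number limits the precision.

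The platform annotation gave 1 gene to 25349 of 46643 probes, with symbols updated through RefSeq. Lists of 19 pathways and 10 cell types named 460 genes, 394 of them annotated, each represented by its brightest probe. The rule for named genes took Dusp1 and G0s2, genes called in each label, the 12 called genes that rose most and the 12 that fell most, and called list members; other genes were named after their values were seen. Members, lists and tests were chosen with earlier results of these data known.

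Same-numbered cold and room temperature arrays of a label had residual correlations of -0.08 to 0.15. They come from different mice, so these values cannot show whether numbers mark animals. Same-numbered BAT and labelled WAT arrays had 0.12, 0.21 and 0.19 at room temperature. In the cold they had 0.18, -3.0e-05 and -0.04. Without differently numbered pairs beside them, these values do not settle the pairing, and the main fit did not pair samples by number. Alternatives were other background corrections, scalings and filters, the value table, group means, the replicate number as a block, an intensity trend with robust variances, a minimum fold, the methods' t-test, and leaving out each array. Values from qRT-PCR were not used here.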

Additional observations from a re-analysis of the deposited data

Results flagged for a closer look

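The cold change of 9 list members differed between BAT and arrays labelled WAT by the interaction test in limma (adjusted p under 0.05). For hepatocyte markers the difference, BAT minus labelled WAT on the log2 scale, was -2.53 for Apoa1 (-2.86 in BAT and -0.34 on arrays labelled WAT), -2.80 for Fga (-2.84 and -0.04), -2.71 for Ahsg (-2.81 and -0.10), -4.01 for Ttr (-4.07 and -0.06), -4.52 for Apoa2 (-4.50 and 0.03) and -2.21 for Hpx (-2.37 and -0.17). These genes encode plasma proteins.

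Elovl3 had a difference of 1.99 (1.91 in BAT and -0.08 on arrays labelled WAT). Rgs16, a regulator of G protein signalling, had 3.00, with -0.47 in BAT and -3.47 on arrays labelled WAT. It was not detected on any cold BAT array, where it was at least 1.03-fold lower. Its BAT change is thus only a bound, and the difference has no settled size or direction. Junb had 1.42, with 0.22 in BAT and -1.20 on arrays labelled WAT.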

How the results depend on the processing

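The 75th percentile scaling and neqc over the 12 arrays or within each label called the same 20 probes. With an offset of 50, 14 rose and 9 fell (16 of the 20 among them), and the signed cold change was lower in BAT for 32. Without further background correction 3 rose and 5 fell and the signed change was higher in BAT for 6, and the value table gave 3, 5 and 6 too, with 5 of the 20 kept in each. With detection on all 6 arrays of each label the interaction counts were 5 and 17. At a score of 0.6 the calls were 5 higher and 4 lower, with a signed change higher in BAT for 23, and without a filter 3, 2 and, for a signed change lower in BAT, 25. Group means gave 53 higher and 99 lower (all 20 kept). The mean of BAT and WAT arrays of one number, which treats them as 1 animal, gave 13 higher and 46 lower and kept 13 of the 20, losing Mfsd2a, Gadd45g, Tubb6, Hspa8, Aox3 and Wdr6 (adjusted p 0.0528 to 0.0781). The random block gave 21 calls (consensus correlation -0.04). The replicate block gave 17 higher and 13 lower, 19 of the 20 kept. A minimum of 2-fold left 6 and 5. For each label alone, the unadjusted limma p gave 74 and 69, and the methods' t-test 5 and 2. Leaving out single arrays gave 2 to 37 higher, 1 to 39 lower, 0 to 1 higher in each label, 0 lower in each label, and 2 to 21 and 32 to 72 for a change higher and lower in BAT. The cause of these shifts was not tested. None of the 13 named genes turned direction under any alternative run. Other than single arrays, Dusp1 and G0s2 were called in 14 of 14 alternatives (adjusted p 0.000375 to 0.0432 and 0.000311 to 0.0183). The call was lost in 7 of 13 for Mfsd2a, 6 of 13 for Aox3, 5 of 13 for Gadd45g, 5 of 14 for Tubb6, 4 of 13 for Noct, 4 of 14 for H3c13 and Hspa8, 3 of 13 for Hsd3b5 and Cyp4f14, and 2 of 14 for Cyp51 and Wdr6. On arrays labelled liver 16 to 17 of the 20 probes had the shared direction without single liver arrays. A slide block was not run, since the file headers name no slide.

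Each group had 3 arrays, and signals near background (the called Noct probe and Wdr6, and Gadd45g on arrays labelled WAT) carry little precision. Some BAT and labelled WAT arrays share animals, and the labels do not say which.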

Other observations

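In the remaining pathway lists 0 genes were called over both labels by limma. Of all genes tested 6.49% were higher and 7.74% lower without adjustment, the shares to set beside the counts that follow. At an unadjusted p under 0.05, 3 were higher and 1 lower of 7 cyclic AMP targets and G protein regulators, 3 and 1 of 10 fasting and PPAR targets, 3 and 1 of 14 glucose and lipid synthesis genes, 0 and 2 of 9 insulin signalling genes, 0 and 1 of 11 extracellular matrix genes, and 0 and 0 of 8 cytosolic ribosomal proteins. Angptl4, an inhibitor of lipoprotein lipase, had log2 changes of -1.43 in BAT and -0.37 on arrays labelled WAT (adjusted p = 0.102 over both). Among the other marker lists, 0 genes were called, with 0 higher and 1 lower unadjusted of 5 adipocyte, 2 and 0 of 8 brown adipocyte, 1 and 1 of 7 endothelial, 0 and 1 of 3 erythroid, 0 and 1 of 3 lymphocyte, and 0 and 0 of 5 skeletal muscle, 2 exocrine pancreas and 1 mesothelial markers.

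The probes annotated to Pdxdc1 went opposite ways in both labels, with log2 changes of 1.85 and 1.75 for a pair of them (adjusted p = 0.102 and 0.104) and -0.63 and -0.50 for the other pair (adjusted p = 0.128 and 0.383).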
